A study of Fukomys damarensis with 47 samples.

Results

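Estradiol was added to bone marrow cells of 6 nonbreeding female Damaraland mole-rats, and each treated long bone culture was compared with a vehicle culture of the same animal. These are the 12 libraries of the 47 in the series that come from nonbreeders with both an estradiol and a vehicle long bone culture. The animals (DVF008, G1F022, G4F020, NOF007, WAF011 and WEF002) were between 1005 and 1231 days old. Of these, 5 were helpers, which live in a colony with a breeding female, and 1 (G4F020) was a solitaire, which was kept alone. Marrow cells of several long bones of an animal were pooled, and the adherent cells, meant to be rich in mesenchymal stromal cells of the marrow (bMSCs), were grown in medium with serum and basic fibroblast growth factor. A ROCK inhibitor was present at plating and left out at treatment. Once cell clusters were visible, plates received medium with 10 nM estradiol (E2) or vehicle for 24 hr. Each animal gave 1 culture per treatment, so the treatment and the dish cannot be told apart within an animal. Queens (breeding females; 4 animals, 8 long bone libraries) and the lumbar vertebrae (LV) of nonbreeders (5 animals, 10 libraries, 3 of the animals also among the 6) received the same treatments and served for comparison. The queens were between 1004 and 1132 days old. The LV animals, 4 helpers and 1 solitaire (WEF001), were between 1005 and 1232 days old. The vertebrae, unlike the long bones, were first digested with collagenase, so bone type and digestion cannot be told apart.

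Estradiol acts mainly through nuclear estrogen receptors. Once bound, these sit on DNA at estrogen response elements, or on other factors such as AP-1, and recruit coactivators or corepressors, so that target genes are transcribed more or less. In bone, estrogen is known to slow resorption by osteoclasts, to act on osteoblasts and their precursors, and to take part in the closure of growth plates. The comparison asks which genes of marrow-derived bone cells of nonbreeders change their level within a day of estradiol.

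The cultures held transcripts of the stromal lineage in every library. The osteoblast and stromal markers COL1A1, COL5A2, SERPINF1 and DDR2 had at least 935, 3139, 2092 and 1938 counts in each library. Leukocyte transcripts were also present. LAPTM5, a lysosomal membrane protein of blood cells, ranged from 4.73 to 9.42 log2 CPM (CPM being a library's counts scaled to a common total). The 23 leukocyte genes summed to between 135 and 1050 CPM in vehicle libraries and between 185 and 1534 CPM in estradiol libraries. The microglia and monocyte receptor CX3CR1 reached at most -0.27 log2 CPM in the 4 libraries of DVF008 and WAF011 and at least 1.71 log2 CPM in the other 8. The leukocyte markers C3AR1, TLR8 and CD180 were also lowest in these 4 libraries, but LAPTM5, CORO1A, LCP2 and IL10RA did not split this way. In DVF008, LAPTM5 stood at 8.79 log2 CPM with estradiol and 7.21 with vehicle, and LCP2 at 6.80 and 6.54. Of the 26 marker genes, IL10RA and ADAM8 had 0 counts in 1 library each, and the others were detected in all 12. In bulk samples fewer cells of a type and less RNA per cell cannot be told apart. Libraries held between 6174122 and 14740985 counts. The estradiol library was the deeper one in 2 of 6 animals, and the log2 totals of the treatments did not differ beyond the spread between animals (exact sign-flip test over animals, two-sided, p = 0.594, with 0.03125 the smallest p that 6 pairs allow).

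The libraries of WAF011 and WEF002 stood apart. In DVF008, G1F022, G4F020 and NOF007 the correlation across the 11047 tested genes between the estradiol and the vehicle library was between 0.975 and 0.990. It was 0.930 in WAF011 and 0.893 in WEF002, whose libraries therefore differed most. In WEF002, 4917 genes (44.5%) differed between the libraries by more than 1 on the log2 CPM scale, and in WAF011 2486 genes (22.5%) did. In G4F020, DVF008, NOF007 and G1F022 it was 1.65%, 3.44%, 4.45% and 4.76% of genes. Among the animals used for comparison, the queens LAF007 and MAF006 (30.1% and 33.7%) and the LV cultures of WAF011, DVF008 and WEF001 (18.9%, 22.1% and 23.4%) also had large shares. The differences of WAF011 and WEF002 ran opposite to each other across genes (r = -0.51, n = 11047 genes, which share libraries and are not replicates). Between the other pairs of animals r lay between -0.29 and 0.17.

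**Figure D1:**
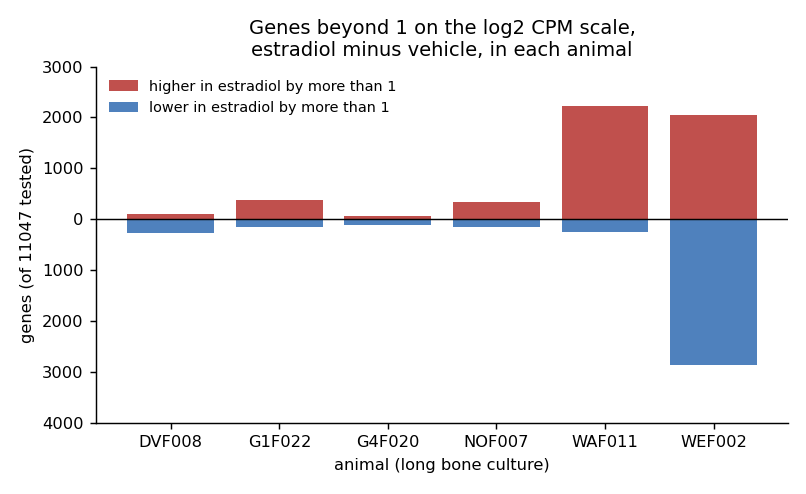
Number of the tested genes (y axis) whose level in the estradiol library was more than 1 log2 CPM above (red) or below (blue) that in the vehicle library, for each of the 6 nonbreeders (x axis). WAF011 had 2228 genes above and 258 below, WEF002 2045 above and 2872 below, and the other animals at most 376 in either direction.

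Some cell type markers differed along with this divergence and others did not. COL1A1, the main collagen chain of bone, differed between estradiol and vehicle by 1.45 in WAF011 and by -1.75 in WEF002. Of the other stromal markers, SERPINF1 stood at 8.82 log2 CPM in the estradiol and 9.34 in the vehicle library of WAF011. COL5A2 stood at 9.69 and 9.36 log2 CPM in those of WEF002, so in each animal a marker went against COL1A1. In the other 4 animals the median difference of the 21 bone matrix genes was between -0.30 and 0.17, against 1.03 in WAF011 and -0.93 in WEF002. In WAF011, the estradiol library of the long bones correlated better with the vehicle library of the LV (r = 0.978) than with its own vehicle library, and the vehicle library of the long bones better with the estradiol library of the LV (r = 0.981), while the LV libraries correlated with each other at 0.944. Whether libraries of this animal carry each other's labels was not tested. Its values are given as labelled, and every direction drawn from its cultures rests on those labels. Both long bone libraries of WEF002 also correlated best with its LV vehicle library (r = 0.952 and 0.911). Counts of genes are therefore also given without these animals. The part of cell composition in the results was not tested.

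No gene passed a false discovery rate of 10% in the paired comparison (0 of 11047 genes, 0%, edgeR's quasi-likelihood test with animal as a block; smallest adjusted p = 0.9998). At an unadjusted p under 0.05 there were 84 genes (0.760%), 42 higher and 42 lower with estradiol. With DESeq2's size factors in place of TMM the split was 52 higher and 27 lower. DESeq2's Wald test called 1 gene at the same rate, limma voom 0. Leaving out WEF002 gave 343 genes at p under 0.05 and leaving out both WAF011 and WEF002 gave 464, still with 0 genes past 10%. In 149 genes (1.35%) all 6 animals differed in the same direction, 85 of them higher and 64 lower with estradiol, and 45 of the 84 genes were of this kind. The genes described next are those with the smallest p in each direction and the members of fixed lists. None of them passed the threshold in this fit, so their values describe a ranking and no call.

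TGFBR3 had the smallest p of all genes. It encodes betaglycan, the type III receptor that presents TGF-β ligands to the signalling receptors and also binds inhibin. Its level in vehicle cultures was 2.73 log2 CPM in DVF008, 2.75 in G1F022, 3.61 in G4F020, 3.41 in NOF007, 3.04 in WAF011 and 3.35 in WEF002. In the estradiol cultures of the same animals it was 3.76, 3.76, 4.23, 4.44, 4.04 and 4.39 log2 CPM. Every estradiol library lay above every vehicle library. The difference within an animal was between 1.00 and 1.04 in 5 animals and 0.62 in G4F020, so it was nearly as even in WAF011 and WEF002 as in the others. The fitted change was 0.92 ± 0.17 (SE, n = 6 animals; 95% interval 0.53 to 1.31), 1.89-fold, with an unadjusted p = 0.00046 and an adjusted p = 0.9998 in edgeR. This gene was the 1 called by DESeq2's Wald test (log2 change 0.95, adjusted p = 0.089). Over all the alternatives its adjusted p lay between 0.063 and 1, and its log2 change between 0.85 and 1.04. The counts behind these levels were between 49 and 107 in vehicle and between 89 and 212 in estradiol libraries.

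TGFBR3 was also higher with estradiol in the LV cultures of nonbreeders. There it stood at 2.66 to 3.61 log2 CPM in vehicle and at 3.69 to 4.83 in estradiol libraries, again without overlap, with the difference above 0 in 5 of 5 animals (1.02% of tested genes were higher in all 5). The fitted change was 1.06 ± 0.29 (SE, n = 5). The unadjusted p in edgeR was 0.0064 and the adjusted p 0.997. In the long bones of queens it was higher with estradiol in 3 of 4 animals, with differences of 1.42, 0.62, 0.39 and -0.11 and a fitted change of 0.57 ± 0.37 (SE; edgeR, p = 0.16). The change in nonbreeders minus that in queens was 0.38 (95% interval -0.35 to 1.10, interaction term, p = 0.28 in edgeR, adjusted p = 0.945), which neither separates the groups nor shows that they are alike.

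Other named genes higher with estradiol showed smaller or less even differences. MTMR7, a myotubularin-related phosphatase, was higher in 6 of 6 animals, by 0.22 to 1.08, with vehicle levels of 1.65, 2.28 and 2.75 log2 CPM (lowest, median, highest) and estradiol levels of 1.99, 3.00 and 3.57. Its fitted change was 0.63 ± 0.22 (SE, n = 6), with an unadjusted p in edgeR of 0.017. The groups overlapped, since G1F022 was lowest under both treatments. The same gene was higher in 4 of 4 queens and in 5 of 5 LV cultures, with fitted changes of 0.59 and 0.53 (2.35% of tested genes were higher in all 4 queens).

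SOCS2, which restrains growth hormone and other cytokine signalling and is a target of several hormones, was higher by 0.24 to 0.58 in 6 of 6 animals. Its levels were 2.91, 3.09 and 3.95 log2 CPM in vehicle and 3.34, 3.57 and 4.29 in estradiol libraries (lowest, median, highest). DVF008 was the highest under both treatments, and the groups overlapped through it. The fitted change was 0.40 ± 0.17 (SE; edgeR, p = 0.046). It was 0.21 in queens, higher in 3 of 4, and 0.40 in the LV, higher in 5 of 5.

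For PDE3A, which hydrolyses cyclic nucleotides, the fitted change was 0.43 ± 0.20 (SE; edgeR, p = 0.062), with 1.20 in WAF011 and -0.06 in G4F020. ANGEL1 had a fitted change of 1.15 ± 0.54 (p = 0.062) that leaned on a difference of 3.92 in WAF011, with 1.34 the next highest. FAM81A had 0.56 ± 0.29 (p = 0.088) and was lower in WEF002.

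**Figure D2:**
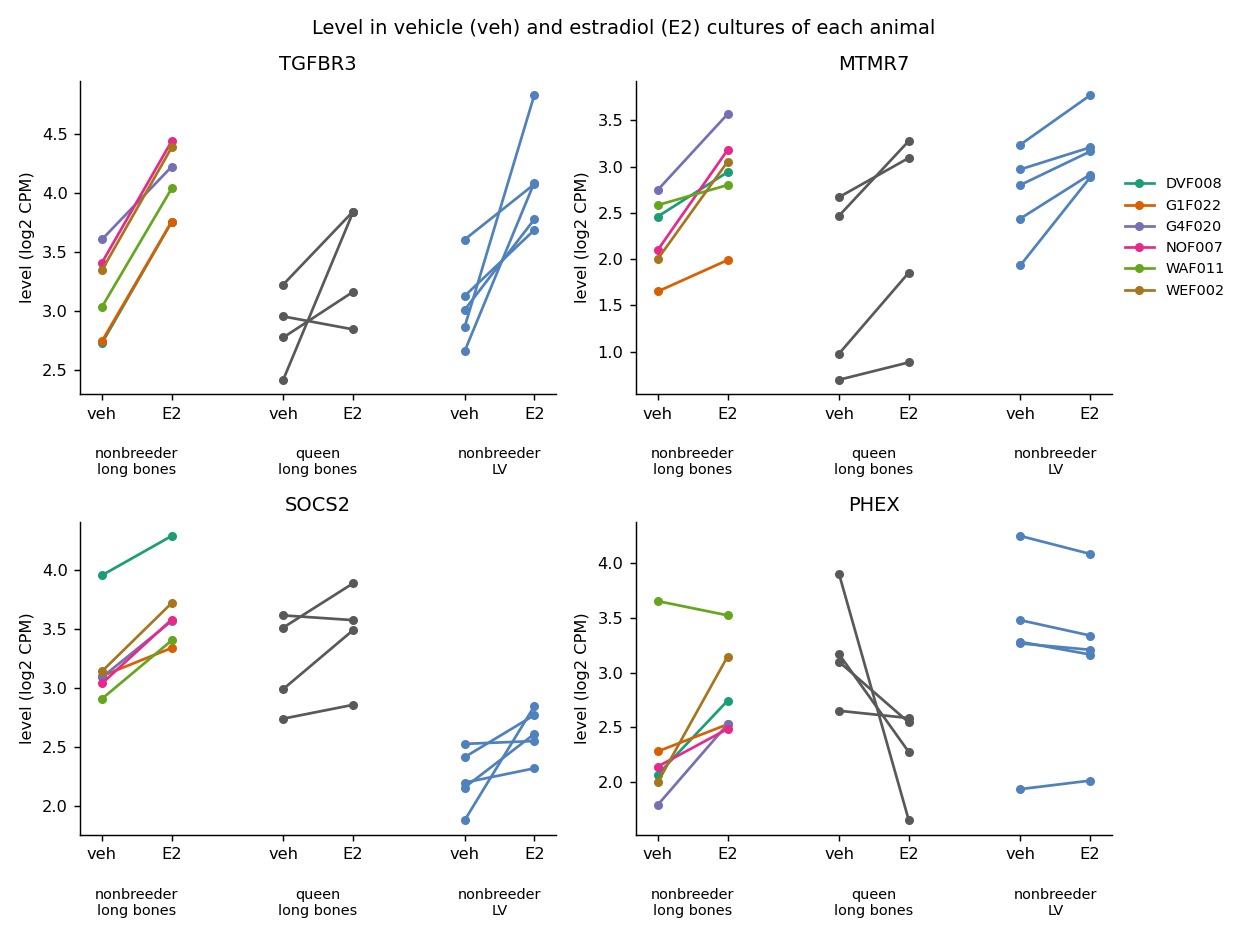
Levels in log2 CPM (y axis) of TGFBR3, MTMR7, SOCS2 and PHEX in vehicle (veh) and estradiol (E2) cultures, each line joining the cultures of 1 animal; nonbreeder long bones are coloured by animal, queen long bones are grey and nonbreeder LV blue. TGFBR3 lines climb by 0.62 to 1.04 in all 6 nonbreeders, MTMR7 and SOCS2 lines also climb in all 6, and PHEX lines climb in 5 of 6 nonbreeders and descend in 4 of 4 queens.

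Differences were also uneven among the named genes lower with estradiol. The monocyte chemoattractant CCL8 had a fitted change of -1.0 ± 0.46 (SE; edgeR, p = 0.058). Its vehicle levels were 0.42, 2.43 and 3.91 log2 CPM and its estradiol levels -1.54, 0.85 and 4.15 (lowest, median, highest), and it was lower in 4 of 6 animals and higher in NOF007 by 0.63. The others were C19orf67, the endoribonuclease RNASEK, the myosin light chain MYL4, the ADP receptor P2RY1, the peptide precursor NMB and the poly(A)-binding protein PABPC5. Their fitted changes were between -0.64 and -0.35, with p between 0.063 and 0.083. Without WEF002, C19orf67 had -0.37, RNASEK -0.20, MYL4 -0.22 and NMB -0.30. NMB was lower in 6 of 6 animals, and its difference in WEF002 was -1.54 against -0.56 in the next.

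Among genes that the files give only by identifier, ENSFDAG00000008709 was higher in 6 of 6 animals, by 0.46 to 2.29, with WEF002 the highest. Its vehicle levels were 6.85, 7.71 and 8.84 log2 CPM and its estradiol levels 7.31, 8.73 and 10.01 (lowest, median, highest). The fitted change was 0.89 ± 0.22 (SE; edgeR, p = 0.0025), and in the LV it was 0.80 ± 0.17 (p = 0.0017), higher in 5 of 5 animals. ENSFDAG00000010521 had a fitted change of 1.42 ± 0.30 (p = 0.0014) and of 1.44 in the LV, but no count in either long bone library of G4F020, and was higher in the other 5 animals by 0.70 to 1.88. ENSFDAG00000005659 was lower in 6 of 6 animals, by 0.71 to 1.21 on the log2 scale, on counts of 10 to 38 in vehicle and 3 to 22 in estradiol libraries. Its fitted change was -1.06 ± 0.26 (p = 0.0027), and in the LV it was 0.16 ± 0.38. The long bone minus LV difference of this gene was -1.20 ± 0.41, the smallest p of that comparison (edgeR, p = 0.012, adjusted p = 0.9999). With a quality weight per library, an alternative chosen after seeing the data, limma voom called ENSFDAG00000008709 and ENSFDAG00000010521 (adjusted p = 0.013 each). ENSFDAG00000008709 also passed without the filter on low counts (edgeR, adjusted p = 0.088). ENSFDAG00000013420 was lower in 6 of 6 animals with a fitted change of -0.58 ± 0.17 (edgeR, p = 0.0062), and lower in 5 of 5 LV cultures, with differences from -1.35 to -0.0099. In the long bones of queens, ENSFDAG00000008709 and ENSFDAG00000010521 were higher in 3 of 4 animals, with -1.01 in MAF006 and -0.68 in LAF007 the exceptions. ENSFDAG00000005659 and ENSFDAG00000013420 were lower in 3 of 4 queens, with 1.18 in NOF009 and 0.025 in WAF014 the exceptions.

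Without the filter on low counts, 8 of 22170 genes (0.0361%) passed 10%. The same unfiltered fit of the queens' long bones called 3 of 21962 genes (0.0137%), and all 3 were among the 8. These were chosen for description after their values were seen in both groups. ENSFDAG00000012124, which the filter removed, had 2 to 10 counts in the vehicle libraries of the 6 nonbreeders. In the estradiol libraries it had 128 counts in DVF008, 103 in G1F022, 146 in NOF007 and 27 in WAF011, but 4 in G4F020 and 9 in WEF002. So 4 animals were far above their vehicle culture and the other two were not.

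ENSFDAG00000002388 showed the same animals high. Its counts with vehicle and with estradiol were 47 and 398 in DVF008, 2 and 45 in G1F022, 15 and 138 in NOF007, and 7 and 48 in WAF011. They were 7 and 1 in G4F020, and 10 and 4 in WEF002. ENSFDAG00000011386 was higher in 5 of 6 animals, by 0.77 to 3.29, and stood at -0.63 in WEF002 alone below 0.

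In the unfiltered edgeR fit, the log2 changes of ENSFDAG00000012124, ENSFDAG00000002388 and ENSFDAG00000011386 were 2.93 ± 0.42, 2.23 ± 0.40 and 1.32 ± 0.26 (SE of the fit, n = 6), with adjusted p of 4.8e-07, 0.00042 and 0.0043. This SE does not measure the spread of the differences over the 6 animals, whose SDs were 2.43, 2.44 and 1.32 log2 CPM. The exact sign-flip test of these differences gave p = 0.125, 0.156 and 0.0625, with 0.03125 the smallest p possible. In queens they were 3.47, 3.47 and 1.87, higher in 4 of 4 animals each, with adjusted p of 7.3e-05, 2.3e-05 and 0.031 by the same fit. The rise in queens was uneven. ENSFDAG00000002388 had 8 counts with vehicle and 9 with estradiol in WAF014. ENSFDAG00000012124 had 1 and 7 in LAF007 and 4 and 15 in WAF014, against 8 and 63 in MAF006 and 2 and 151 in NOF009. In the LV of nonbreeders the log2 changes of the 3 genes were 2.21, 1.42 and 1.20, higher in 4 of 5 animals each. No gene passed there (0 of 21915 genes, 0%). The calls depend on the filter. With it, the SE of ENSFDAG00000002388 was, in nonbreeder long bones, 0.85 in place of 0.40, its p was 0.028 and its adjusted p 0.9998, and in queens its p was 0.0024 with an adjusted p of 0.972. In WAF011, ENSFDAG00000012124 had 27 and 2 counts in the estradiol and vehicle libraries of the long bones and 39 and 2 in those of the LV. The other 2 genes turned direction between the bones of this animal. ENSFDAG00000002388 differed by 2.21 in its long bones and by -0.93 in its LV, and ENSFDAG00000011386 by 3.29 and -1.13 (log2 CPM).

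**Figure D3:**
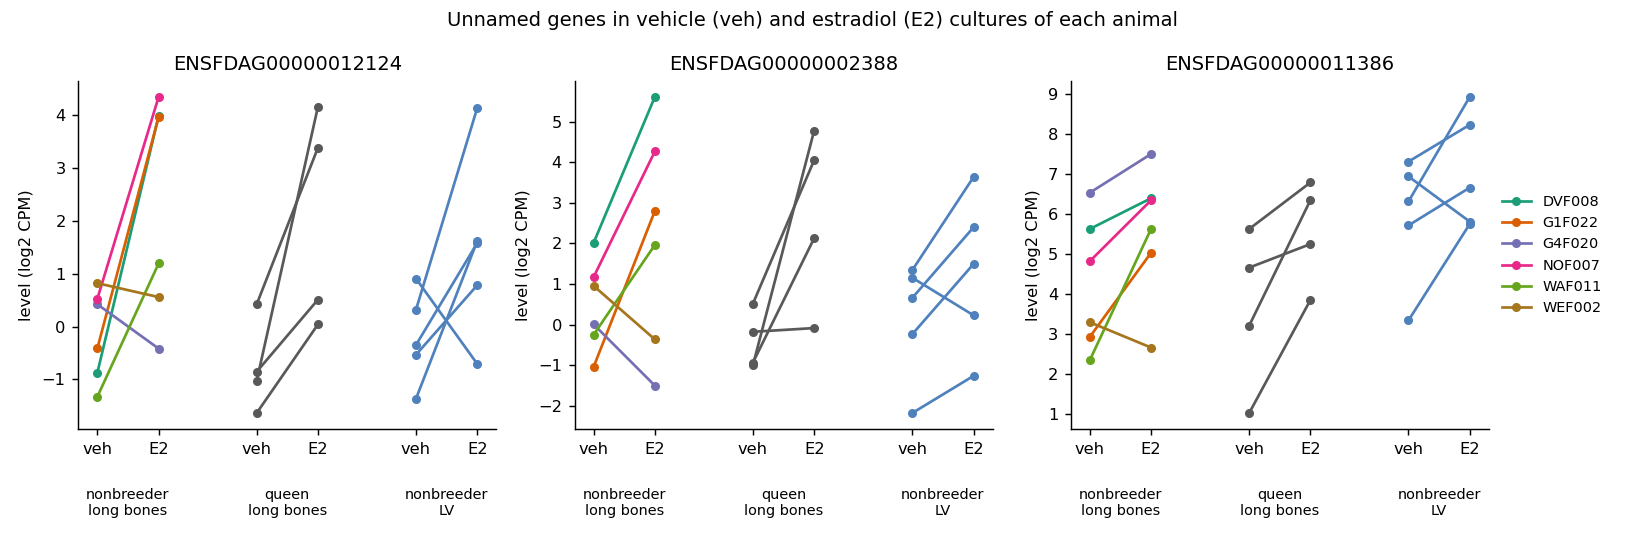
Levels in log2 CPM (y axis) of the 3 genes called without the filter in both nonbreeders and queens, in vehicle (veh) and estradiol (E2) cultures, each line joining the cultures of 1 animal; nonbreeder long bones are coloured by animal, queen long bones are grey and nonbreeder LV blue. For the first 2 genes the lines of G4F020 and WEF002 do not climb, while those of the other 4 nonbreeders climb by 2.21 to 4.86.

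A list of 24 genes known to respond to estrogen in other cells held no gene with a low p. All 24 were tested, and 0 had p under 0.05 in either direction, which at 0.760% of all tested genes is no result about the list. The fitted change was above 0 in 7 and below 0 in 17, beside 5096 and 5951 of all 11047 tested genes. The median was -0.09, against -0.02 for all genes. None of the 24 differed in the same direction in all 6 animals, where 1.35% of all tested genes did. The fitted changes ran from -0.37 for IGFBP4, which binds insulin-like growth factors (95% interval -0.99 to 0.25), to 0.31 for CANT1, a nucleotidase. Each end rested on 1 animal, since IGFBP4 had -0.078 without WEF002, and CANT1 had a difference of 2.22 in WAF011 and a fitted change of -0.02 without both WAF011 and WEF002. NRIP1, a corepressor of estrogen receptors that they themselves induce, had a fitted change of 0.09 (95% interval -0.41 to 0.58), and without WEF002 of -0.13. Its levels were 5.54, 5.95 and 6.36 log2 CPM in vehicle and 5.56, 5.93 and 7.23 in estradiol libraries (lowest, median, highest), so that only the estradiol library of WEF002 was set apart. The estrogen receptor genes ESR1 and ESR2 are not among the symbols used here and were not analysed.

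For the transcription factor MYC the interval was -0.75 to 0.46, for the secreted glycoprotein STC2 -0.81 to 0.40, and for SCUBE2, a secreted protein of the Hedgehog pathway, -0.97 to 0.59. For IL6ST, the shared receptor chain of interleukin-6 cytokines, it was -0.24 to 0.66, and for FHL2, a LIM-domain cofactor, -0.74 to 0.21. Changes of 2-fold (1 on the log2 scale) lay outside each of these 95% intervals.

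**Figure D4:**
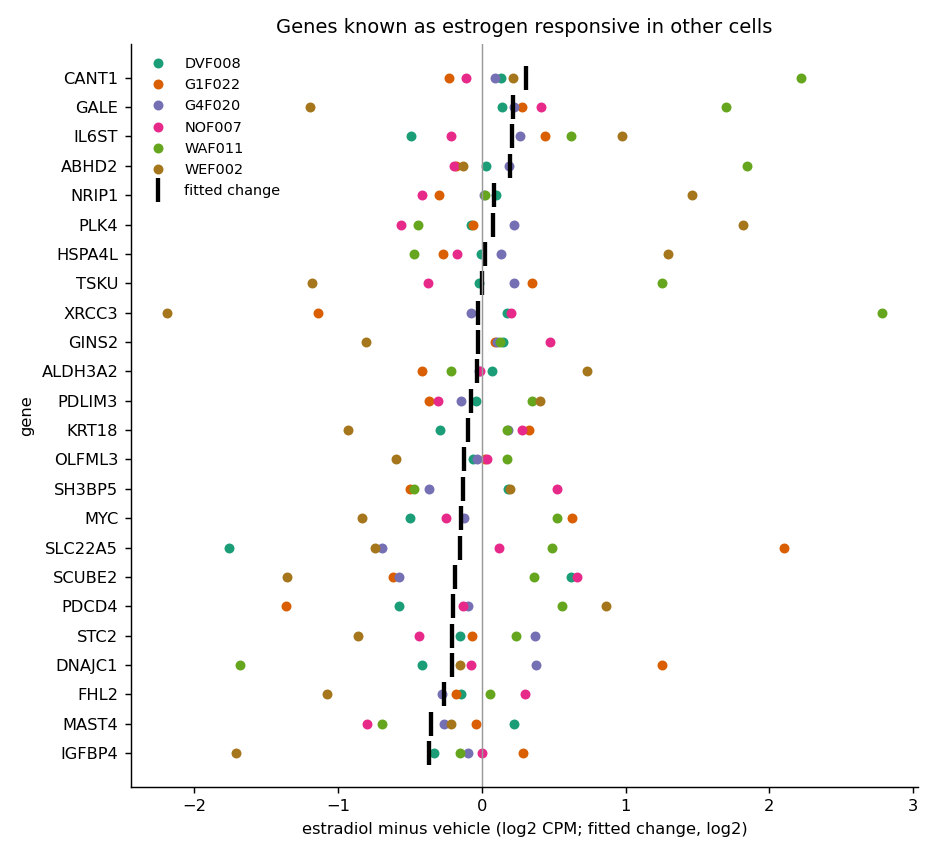
Difference between estradiol and vehicle (x axis, log2 CPM) for each of the 24 genes known as estrogen responsive in other cells (y axis, ordered by fitted change), with 1 point per animal and the fitted change as a black bar. Fitted changes lie between -0.37 and 0.31, and the point farthest from 0 of a gene is mostly that of WEF002 or WAF011.

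Coregulators of nuclear receptors and genes of steroid handling held none either. Of 12 genes, 0 had p under 0.05, which at 0.760% of all tested genes is no result about the list, and the median was -0.03. The adipogenic receptor PPARG had a fitted change of -0.30 (95% interval -0.78 to 0.18), and HSD17B11, a hydroxysteroid dehydrogenase, one of -0.05 (-0.47 to 0.37).

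Growth factor signalling held 1 of 23 tested genes at p under 0.05, TGFBR3 itself, beside 0.760% of all tested genes, and the median of the list was -0.07. None of the other genes of the list had p under 0.05. In the TGF-β pathway, the receptor TGFBR1 had 0.15 ± 0.23, the ligand TGFB3 0.12 ± 0.28, the signal transducer SMAD2 0.11 ± 0.20, the activin receptor ACVR2A -0.04 ± 0.19, and the BMP antagonist GREM1 -0.40 ± 0.27 (SE, n = 6). ENG, endoglin, the other coreceptor of this pathway, had 0.35 ± 0.35 with differences of 1.86 in WAF011 and -0.82 in WEF002.

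Of the 21 bone matrix and osteoblast genes, 0 had p under 0.05 (0.760% of all tested genes did), and their median was -0.03. COL1A1 had -0.36 ± 0.38 (SE, n = 6) and was lower in 5 of 6 animals. Without WEF002 it had -0.036 and without WAF011 -0.64. Its vehicle levels were 7.24, 9.29 and 10.48 log2 CPM and its estradiol levels 7.13, 8.79 and 10.21 (lowest, median, highest). The list had values from -0.38 for LOXL1, a cross-linking enzyme of elastin, to 0.46 for PHEX. PHEX, the membrane endopeptidase of osteoblasts and osteocytes whose loss causes phosphate wasting, was higher in 5 of 6 animals, with 1.14 in WEF002, 0.73 in G4F020, 0.67 in DVF008, 0.34 in NOF007, 0.25 in G1F022 and -0.13 in WAF011. Its vehicle levels were 1.79, 2.11 and 3.65 log2 CPM and its estradiol levels 2.49, 2.64 and 3.52 (lowest, median, highest). The fitted change was 0.46 ± 0.23 (edgeR, p = 0.073), and it was 0.65 without WAF011 and 0.36 without WEF002.

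Osteoclast and lysosome genes (12 tested) had a median of -0.03, and CTSK, the collagen-degrading protease of osteoclasts, had a fitted change of -0.19 ± 0.21, with -1.05 in WEF002 and between -0.16 and 0.28 in the other animals. Leukocyte markers (22 tested of 23) had a median of 0.12. LAPTM5 had a fitted change of 0.36 ± 0.38, and its differences ranged from -1.31 in WEF002 to 1.58 in DVF008. In the LV it was higher with estradiol in 5 of 5 animals, with a fitted change of 0.79 ± 0.21 (SE; edgeR, p = 0.0053, adjusted p = 0.997), beside the TGFBR3 change there. In the long bones, CORO1A, an actin-binding protein of blood cells, had a fitted change of 0.15 ± 0.32. In the LV, CORO1A was higher in 4 of 5 animals, and its difference was -0.83 in WAF011, where that of LAPTM5 was 0.83. Endothelial (6), muscle (9 of 10), adipocyte (11) and cell division (23) lists had medians of 0.14, -0.08, -0.12 and 0.002. None of these 6 lists had a gene at p under 0.05, where 0.760% of all tested genes did. Inflammation and interferon genes had a median of -0.07, with 1 of 15 tested at p under 0.05, SOCS2. Over all 11 lists, 2 of the 166 distinct tested genes (1.2%) had p under 0.05, near the 0.760% of all tested genes.

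**Figure D5:**
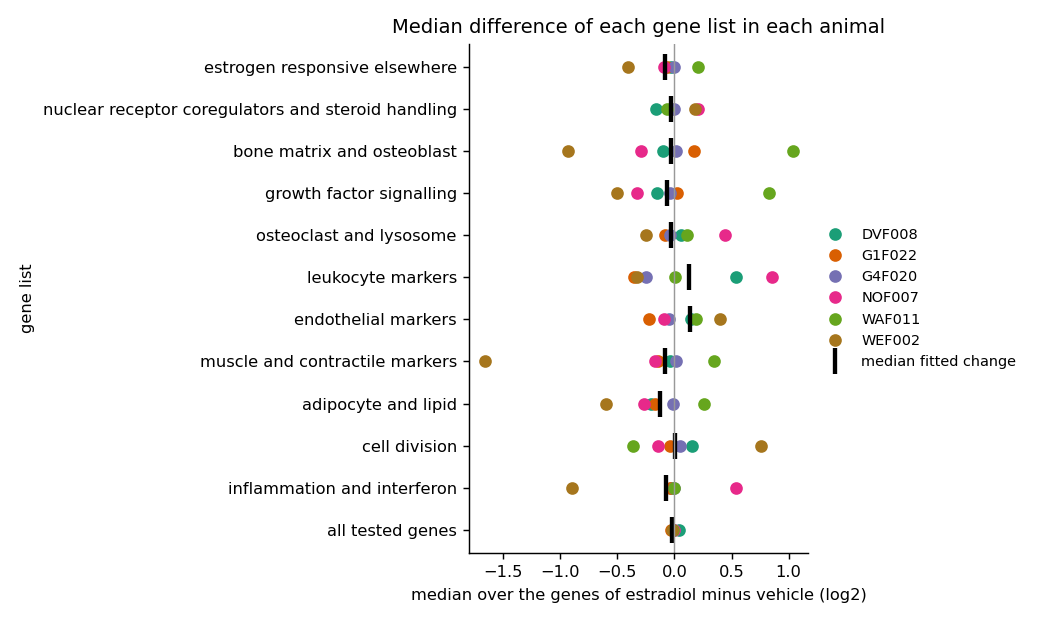
Median over the tested genes of each of 11 lists, and of all tested genes, of the difference between estradiol and vehicle (x axis, log2), with 1 point per animal and the median fitted change as a black bar. WAF011 and WEF002 lie at opposite ends for the bone matrix list (1.03 and -0.93), and no list has all 6 animals on one side of 0.

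The response of nonbreeders was next set against that of queens, to ask whether breeding status goes with a different response. In the test of the difference between both groups (20 long bone libraries, 10 animals), 0 of 11047 genes passed 10% and 27 (0.244%) had p under 0.05 in edgeR, against 0 past 10% and 36 at p under 0.05 with DESeq2 and 0 and 37 with limma voom. Leaving out the queen WAF014 gave 175 and leaving out MAF006 gave 9.

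PHEX had the smallest p of this test. Its estradiol minus vehicle difference in the long bones was above 0 in 5 of 6 nonbreeders and below 0 in 4 of 4 queens. In the LV of nonbreeders it was below 0 in 4 of 5 animals, with a mean of -0.08. In queens it was -2.25 in MAF006, -0.89 in LAF007, -0.55 in NOF009 and -0.07 in WAF014. MAF006 and LAF007 were the queens whose paired libraries differed most. The change in nonbreeders minus that in queens was 1.45 ± 0.46 (SE; 95% interval 0.45 to 2.44; edgeR, p = 0.0081, adjusted p = 0.945). Leaving out 1 animal gave 1.03 (without MAF006) to 1.75 (without WAF014) for PHEX. Over the alternatives its adjusted p lay between 0.67 and 1. ANGPT2, a ligand of the endothelial receptor TIE2, differed by 1.13 ± 0.48 (p = 0.037), with the nonbreeders' highest values in WEF002 (1.43) and WAF011 (0.91). Without these 2 animals its difference was 0.70, and without the queen MAF006 it was 0.72. SHTN1, a protein of neuronal polarity, differed by 0.95 ± 0.42 (p = 0.041), and by 0.55 without MAF006.

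Signs of the fitted changes were also set side by side. Of the 84 genes with p under 0.05 in nonbreeder long bones, 72 (85.7%) had a fitted change of the same sign in queens, where the share over all tested genes was 49.6%. In the LV of nonbreeders 64 of them (76.2%) did, against 55.1% of all genes, and 3 animals gave cultures to both bone types. Of the 84, 7 also had p under 0.05 with the same sign in queens (background 0.371% of all genes at p under 0.05) and 12 in the LV (0.389%). These shares are a description, since genes of one library are not independent.

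Between long bones and LV of nonbreeders (22 libraries, 8 animals), 0 of 11047 genes passed 10% and 30 (0.272%) had p under 0.05 in edgeR, 2 of them with the higher change in long bones. DESeq2 and limma voom also called 0, with 35 and 36 genes at p under 0.05. Leaving out WAF011 gave 1704 genes at p under 0.05, none past 10%. In WAF011 the differences of COL1A1 were 1.45 for long bones and -1.03 for LV, and those of ENG 1.86 and -1.74. Among genes with a symbol, the smallest p were those of IL13RA2, the decoy receptor of interleukin-13 (0.74 ± 0.36, p = 0.062), PHEX (0.55 ± 0.28, p = 0.068) and C19orf67 (-0.93 ± 0.48, p = 0.072). Without WAF011 these were 1.17, 0.72 and -0.53.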

How the data were processed

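RNA-Seq counts of 12 long bone libraries (6 nonbreeders, estradiol and vehicle) were analysed. Per the methods, the authors used cutadapt 2.3 for trimming, STAR for mapping to DMR_v1.0 (unique reads kept) and HTSeq for counting per Ensembl gene. The deposited values are raw counts. The strand setting is not given in the sources used here. The study's filter used TPM. Here 11047 of 33562 genes reached 2 CPM or more in 25% or more of all 47 libraries. Levels are log2 CPM (TMM factors, prior count 2).

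The quasi-likelihood test of edgeR 4.0.16 (two-sided, R 4.3.3) was fitted with animal as block and Benjamini-Hochberg adjustment over all tested genes; SE is |log2 change| divided by the root of F. DESeq2 1.42.0 and limma 3.58.1 served as alternatives. Both libraries of an animal deviated together from the treatment means in DVF008, G1F022, G4F020 and NOF007 (r between 0.65 and 0.89). In WAF011 and WEF002 they did so far less (r = 0.21 and 0.14), so for these animals the pairing rests on the labels. None was a copy of another (chi-squared per degree of freedom at least 3.70). The tests were run on simulated counts first.

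Symbols (1147, 1117 of them tested) came from the identifier-symbol pairs in the study's gene table; the reference gene table matched 0 identifiers, and no sequence was used. Named genes were the 8 symbols with the smallest p in each direction, 2 identifiers per direction, list members with p under 0.05, fixed estrogen and marker genes and 3 symbols per difference test; 3 further genes were chosen after their values were seen. Some genes the rule named are not reported here. Members, lists and rules were chosen with earlier results of these data known.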

Additional observations from a re-analysis of the deposited data

Results flagged for a closer look

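Among 40 named genes, 7 had 1 animal whose estradiol minus vehicle difference in the long bones lay far from those of the other 5. Chance alone sets about 1 in 20 such groups apart. For 5 of them the animal was WEF002, with differences (log2 CPM) of -1.54 for NMB (nearest other animal -0.56), 2.29 for ENSFDAG00000008709 (0.88), 1.46 for NRIP1 (0.10), -1.71 for IGFBP4 (-0.34) and -1.05 for CTSK (-0.16). For ANGEL1 it was WAF011, with 3.92 (nearest 1.34). For TGFBR3 it was G4F020, the only solitaire, with 0.62 (nearest 1.00). The cause was not tested.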

How the results depend on the processing

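The count of genes past 10% in nonbreeder long bones was 0 in edgeR and moved to 8 with no filter on low counts and to 1 with DESeq2's Wald test. It was 0 with DESeq2 size factors, filterByExpr, limma voom, the spread shared with queens and a model of all 47 libraries. Without the replicate block (animal not paired) it was 0, with 31 genes at p under 0.05 against 84, and the block changed no other call. Leaving out each animal in turn gave 0 to 0, with 56 (without DVF008) to 343 at p under 0.05. Of the 2 alternatives chosen after seeing the data, a quality weight per library moved the count to 7, including TGFBR3 (adjusted p = 0.063), ENSFDAG00000008709 and ENSFDAG00000010521 (0.013 each), and gave weights of 0.14 to 0.26 to the libraries of WEF002 and WAF011 and of at least 1.17 to the others. Leaving out both these animals gave 0. At p under 0.05, no filter gave 247 genes (143 higher), the quality weights 540, limma voom 99 and filterByExpr 115. Both difference tests stayed at 0 under every setting run, leaving out each animal included (0 to 0), with 9 to 593 genes at p under 0.05 between nonbreeders and queens and 14 to 1890 between bones.

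Directions turned only for fitted changes near 0. NRIP1 was -0.15 without WAF011 and WEF002 and -0.074 with quality weights. IL6ST was -0.0035, SCUBE2 0.06 and CTSK 0.0039 without both animals. MYC was 0.091 in the model of all libraries, STC2 0.0065 with quality weights and HSD17B11 0.0066 with the spread shared with queens. Leaving out 1 animal gave ranges of -0.13 to 0.19 for NRIP1, -0.29 to 0.043 for MYC, -0.37 to 0.11 for SCUBE2, -0.15 to 0.10 for HSD17B11, -0.29 to 0.020 for CTSK and -0.042 to 0.47 for CORO1A. The cause was not tested.

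With 6 pairs the median SE of a log2 change was 0.25. It was 0.42 and 0.37 for the differences between queens and nonbreeders and between bones. Small changes were therefore not detectable, and larger ones were not called either. TGFBR3 with a fitted change of 0.92 and ENSFDAG00000010521 with 1.42 each had an adjusted p of 0.9998 in edgeR. The 0.760% of genes at p under 0.05 were fewer than the 5% that this threshold allows by chance. The 0 calls thus do not exclude larger responses. Days in culture are not given per sample in the labels and were not modelled.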
